A study of Mus musculus with 12 samples.

Results

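Resting and stimulated CD8+ T cells of mice with an intact Senp1 gene (WT) were compared across all expressed genes. The comparison used 6 of the 12 libraries of the series, 3 from naive spleen cells that were not stimulated (0 h) and 3 from cells stimulated for 48 h with anti-CD3 at 5 µg/ml and anti-CD28 at 1 µg/ml. CD3 transmits signals of the T-cell receptor and CD28 is a costimulatory receptor, so the antibodies stand in for antigen and its second signal. The other 6 libraries came from cells in which the SUMO-cleaving protease gene Senp1 was deleted (CKO), and they entered the same model to share its estimate of spread. Of 56691 gene IDs in the count table, 15935 passed the filter on low counts and were tested. The labels give no arm that was cultured without antibody, so stimulation, time and culture cannot be told apart. Nor is it stated whether each replicate was a different animal, so the tests measure the spread between these libraries. In bulk RNA, fewer cells of a type and less RNA per cell cannot be told apart either.

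A naive CD8+ T cell is small and quiescent. It recirculates through lymphoid organs under factors such as Klf2, Foxo1 and Tcf7, and lives on interleukin 7. When its receptor and CD28 are engaged, NFAT, AP-1, NF-kB and MYC drive growth, the cell takes up amino acids, glucose and iron, builds ribosomes, enters the cell cycle, and becomes a killer cell that makes cytokines and granzymes.

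The libraries held between 16673734 and 22427151 counts. Levels are in CPM, the depth-normalised read count computed on TMM-scaled library totals. Changes are given as log2 of 48 h over 0 h with the standard error (SE) of edgeR's quasi-likelihood fit. Both are relative to the rest of the library, and RNA per cell was not measured. A rise or fall below is therefore one of a gene's share. A gene was called when its Benjamini-Hochberg adjusted p over the 15935 genes was under 0.05, and "adjusted p" below means this test. Senp1, the gene that sets the genotype, stood at 83.9, 85.4 and 77.9 CPM at 0 h and 150.3, 171 and 164 CPM at 48 h, so every WT library held it and it rose by 0.97 ± 0.068 (log2, SE, adjusted p = 8.83e-11). CKO libraries held 54.6 to 59.8 CPM at 0 h and 66.3 to 74.5 CPM at 48 h, below every WT library of the same time but not near 0, and which part of the gene was deleted is not used here. Principal component analysis of the WT libraries placed 89.1% of variance on an axis that separated the times. The next axis held 3.75% and set replicate 1 of both times (27.8 at 0 h and 32.4 at 48 h) apart from the other 4 libraries (-22.1 to -9.05). Some, but not all, of the genes in which replicate 1 stood apart are given with and without it. Pearson's r of log2 CPM between replicates, across genes, ran from 0.984 to 0.991.

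The label was checked against defining transcripts. Cd8a, a chain of the CD8 coreceptor, stood at 904, 969 and 944 CPM at 0 h and 462, 484 and 467 CPM at 48 h, and Cd3e, a signalling chain of the receptor complex, at 369, 411 and 428 CPM at 0 h and 176, 202 and 197 CPM at 48 h. The 8 defining CD8 T-cell markers, receptor and coreceptor chains, summed to 4168 ± 197 CPM at 0 h and 2005 ± 33.5 CPM at 48 h (mean ± SD, n = 3). All 8 were called lower. Lists of B-cell, natural killer, myeloid, neutrophil and erythroid markers had medians from -7.09 to -3.30, against -1.03 for the CD8 list. The 14 B-cell markers summed to 2817, 1512 and 1464 CPM in the 0 h libraries and to 469.7, 363.9 and 373.9 CPM at 48 h. All 14 were called lower, and the 0 h library of replicate 1 was the highest of the 3 for each of them. The 15 natural killer and innate-like markers fell from 242 ± 34.97 CPM to 52.2 ± 11.7 CPM, and 12 of 14 myeloid markers were called lower, with sums of 76.1 ± 16.9 CPM and 7.59 ± 1.34 CPM. The neutrophil and the erythroid lists stood at 5.67 ± 3.64 CPM and 35.9 ± 9.82 CPM at 0 h, and at 0.0803 ± 0.0484 CPM and 2.22 ± 0.403 CPM at 48 h. Of all these markers only Ly6g, a neutrophil gene, was at 0 in all 6 libraries. The 7 CD4 and regulatory T-cell genes, which include the activation genes Il2ra and Ctla4, summed to 418 ± 40.1 CPM at 0 h and 2195 ± 327 CPM at 48 h, with 2 called higher and 1 lower. The part of these other cells in the changes described below was not tested.

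Most of the transcriptome differed between the times. At 48 h 6172 of 15935 tested genes (38.7%) were called higher and 6237 (39.1%) lower, and 3526 (22.1%) were not called. With a log2 change of at least 1, 3583 genes (22.5%) were higher and 3955 (24.8%) lower. Counted over all tested genes, whatever the size of the change, 6303 (39.6%) had every 48 h library above every 0 h library, and 6347 (39.8%) had every one below. The median log2 change over all tested genes was -0.03 and the median size of a change was 0.98. Each gene list below is to be read against this background, in which about as many genes rose as fell. TMM scaling places the bulk of genes near no change. The balance is therefore partly set by the scaling, and is no measure of RNA per cell. Falls outnumbered rises among changes of at least 2 (2028 against 1570 genes) and 3 (1051 against 803), while among changes of at least 5 there were more rises (259) than falls (222). Without replicate 1 of both times 6050 genes were called higher and 5965 lower. Of the 12409 genes called with all libraries, 11564 kept their call and direction in that fit and none changed sign.

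**Figure D1:**
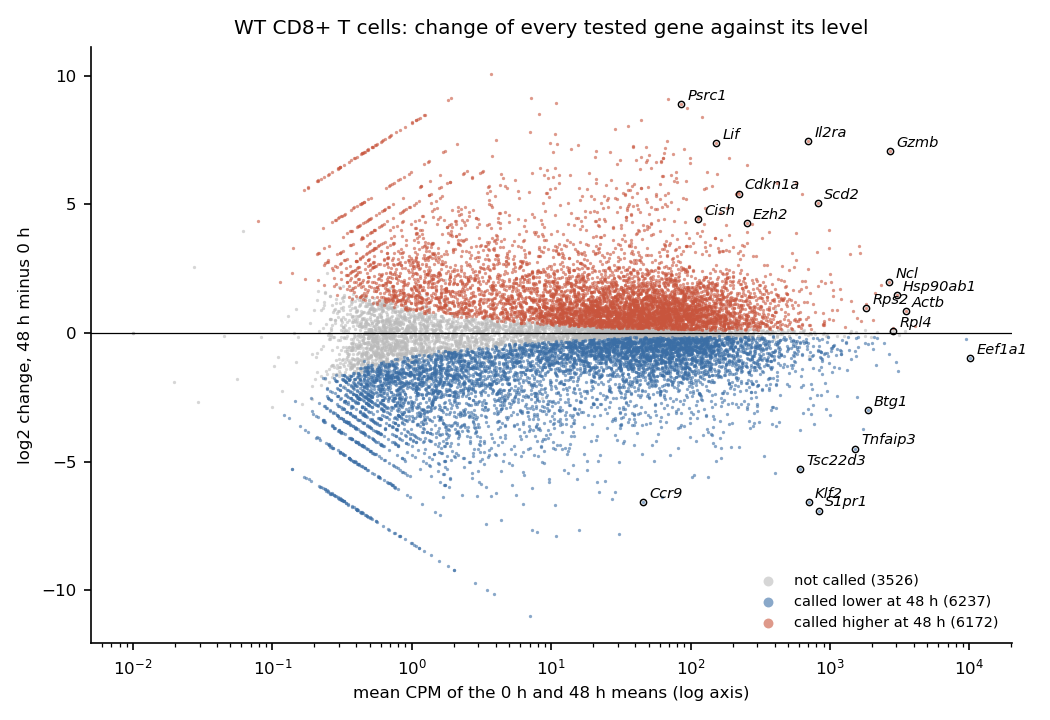
Each point is a tested gene, with the mean CPM of its 0 h and 48 h means on a log axis against its log2 change from 0 h to 48 h; colours mark genes called higher (6172), lower (6237) or not called (3526). Large changes extend to abundant genes, such as Gzmb and Il2ra among rises and S1pr1 and Tnfaip3 among falls; the diagonal streaks at the left are genes with few counts in one group.

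Genes called higher held 27.2% of the CPM of tested genes at 0 h and 57.4% at 48 h, a gain that follows from how they were chosen. The number of genes at 1 CPM or more fell from 13113, 13030 and 13032 in the 0 h libraries to 12455, 12410 and 12412 at 48 h. The counts were spread over more of the abundant genes after stimulation: the most abundant genes that together held 50% of the counts numbered 780, 803 and 777 at 0 h and 900, 958 and 939 at 48 h. The 100 most abundant genes held 19.7%, 19.2% and 20.2% of counts at 0 h and 19.0%, 17.6% and 18.2% at 48 h, with the 0 h libraries all above the 48 h ones. Mitochondrial mRNAs held 2.08% to 2.65% at 0 h and 1.92% to 2.34% at 48 h, ranges that overlap.

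Among genes whose groups did not overlap, Gzmb, which encodes the protease granzyme B, gained most CPM: it stood at 40.8, 39.8 and 38.3 CPM at 0 h and 7240.3, 4389 and 4500.4 CPM at 48 h. Every 48 h library was far above every 0 h library, with replicate 1 the highest, and the log2 change was 7.08 ± 0.38 (adjusted p = 1.63e-07). Ncl and Npm1, abundant nucleolar proteins, were also among the 12 largest gains. Ncl rose from 1070.3 ± 30.8 to 4255 ± 72.9 CPM (SD, n = 3) and Npm1 from 1004 ± 34.4 to 3651 ± 142 CPM. The chaperone Hsp90ab1 stood at 1701, 1577 and 1458 CPM at 0 h and 4437, 4383 and 4471 CPM at 48 h, a gain in all 3 stimulated libraries, and the small acidic protein Ptma rose from 1056 ± 36.8 to 3141 ± 132 CPM. The glycolytic enzymes Ldha, Pkm, Eno1 and Pgk1, the transferrin receptor Tfrc, the fatty acid desaturase Scd2 and the actin Actb completed the 12. Scd2 changed from 47.6 ± 2.44 to 1589 ± 41.6 CPM, a log2 change of 5.06 ± 0.074.

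The 12 largest losses of CPM were likewise taken among genes whose groups did not overlap. Eef1a1, the elongation factor that delivers transfer RNA to the ribosome, lost most: 14024, 12984 and 13275 CPM at 0 h and 7103, 6628 and 6875 CPM at 48 h (log2 change -0.97 ± 0.053, adjusted p = 1.93e-12). Ddx5, an RNA helicase, fell from 4507 ± 37.8 to 1602 ± 9.43 CPM, and Tpt1, a growth-related protein whose mRNA is controlled with those of ribosomal proteins, from 4067 ± 306 to 1852 ± 120.1 CPM. Btg1, an antiproliferative gene of quiescent lymphocytes, stood at 3275, 3330.2 and 3312 CPM at 0 h and 420.3, 401 and 415 CPM at 48 h. Stk17b, a kinase that dampens T-cell receptor signals, fell from 3200.2 ± 139 to 242 ± 20.3 CPM. Tnfaip3, the ubiquitin-editing inhibitor of NF-kB also called A20, fell from 2895 ± 54.2 to 129 ± 3.16 CPM (log2 change -4.49 ± 0.066, adjusted p = 1.75e-20). Its 6 libraries split without overlap. The MHC class I gene H2-K1 (-1.25 ± 0.058), the phosphatase gene Ptprc that encodes CD45 (-0.82 ± 0.054), Gimap6, Klf6, Txnip and S1pr1 made up the rest of the 12.

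**Figure D2:**
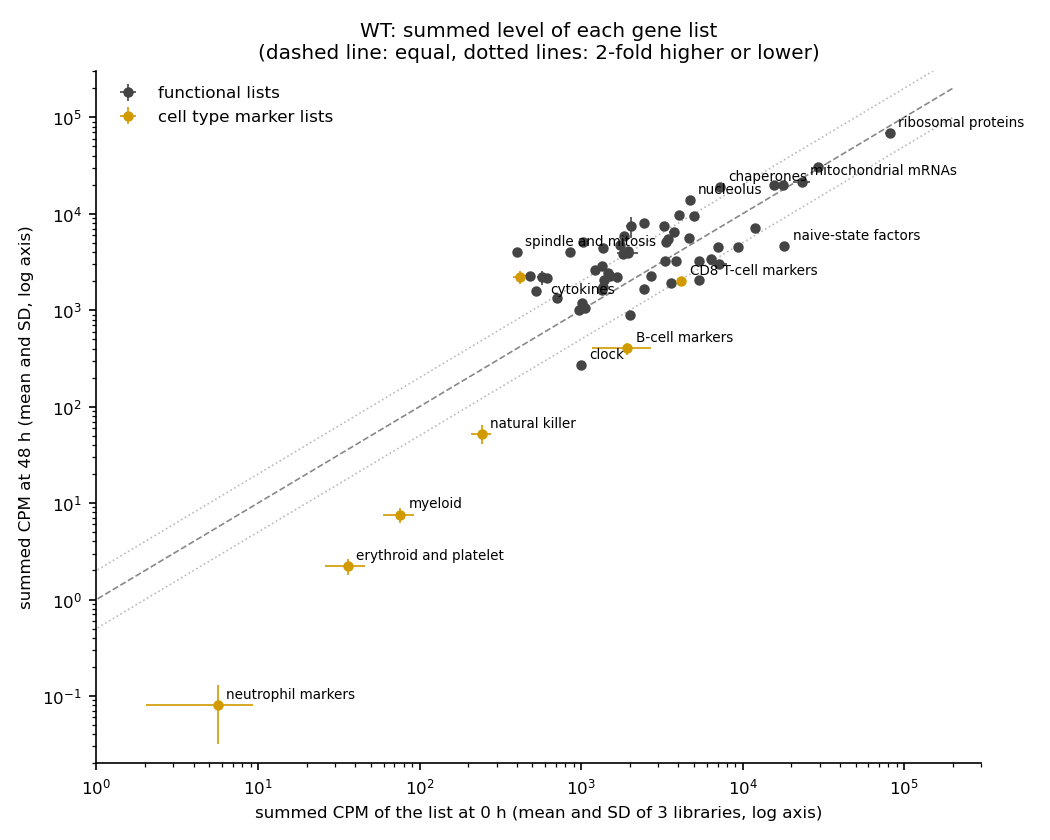
Each point is a gene list, with its summed CPM at 0 h on the horizontal and at 48 h on the vertical log axis (mean and SD of 3 libraries each). The marker lists of B cells, natural killer, myeloid, erythroid cells and neutrophils lie below the equal line, while the unnamed marker point above it is the CD4 and regulatory T-cell list, which holds Il2ra and Ctla4. Spindle, nucleolar and chaperone genes also lie above it.

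Some genes were close to silent at one time. Under the rule of less than 0.5 CPM in every library of one time and more than 5 CPM in every library of the other, 40 genes appeared and 30 disappeared. Without predicted genes, clones and T-cell receptor or antibody variable genes, the numbers were 34 and 15. Several of those that appeared act in mitosis or replication. Psrc1, a spindle protein, stood at 0.286, 0.304 and 0.476 CPM at 0 h and 173, 175 and 161 CPM at 48 h. Pimreg, a mitotic regulator, went from 0.0917 ± 0.0287 to 21.2 ± 0.595 CPM, Ska1, a kinetochore protein, from 0.316 ± 0.123 to 22.5 ± 1.29, and Aunip, a partner of the Aurora A kinase, from 0.112 ± 0.0613 to 19.6 ± 1.07. Lrr1 had 2 counts over the 3 resting libraries and 1305 at 48 h, a ratio of 585 (95% counting interval 162 to 4835). Other genes that appeared are not of the cell cycle. Tnfsf4, the OX40 ligand, stood at 0.458, 0.101 and 0.119 CPM at 0 h and 58.6, 57.3 and 54.2 CPM at 48 h; no resting library reached 0.5 CPM and the stimulated ones differed little. Phlda3, a p53 target that restrains AKT, rose from 0.264 ± 0.126 to 70.9 ± 5.36 CPM, Fads2, a fatty acid desaturase, from 0.284 ± 0.115 to 87.9 ± 9.37, and Lipg, a lipase, from 0.149 ± 0.121 to 20.3 ± 3.9. Il3 and Cd70, not above 5 CPM in every 48 h library, had no counts at 0 h and 234 and 134 at 48 h, at least 69.9-fold and at least 40-fold higher against a floor of 3 counts over the group.

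Among genes that disappeared, Cacna1i, a T-type calcium channel subunit, stood at 17.5, 11.5 and 8.56 CPM at 0 h and 0.208, 0.158 and 0 CPM at 48 h. Ampd1, the muscle-type AMP deaminase, fell from 12.4 ± 1.88 to 0.264 ± 0.208 CPM, Pde2a, a phosphodiesterase, from 8.87 ± 1.29 to 0.332 ± 0.129, and Apol8 from 12.3 ± 0.815 to 0.278 ± 0.0779. Others are transcripts of other cells. Hbb-bs, a beta globin, had 751 counts at 0 h and none at 48 h, at least 279-fold lower against the same floor. Jchain and Igha, expressed by plasma cells, stood at 71.4, 13.5 and 10.2 and 26.2, 10.6 and 6.9 CPM at 0 h, highest in replicate 1, and at 0.052, 0.316 and 0.0908 and 0.104, 0 and 0.0908 CPM at 48 h. The Jchain change of -7.66 ± 1.2 was -5.85 without replicate 1 of both times, and that of Ighg2c moved from -6.67 ± 2.0 to -3.24 (adjusted p = 0.00172).

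Most transcripts of the receptor that received the stimulus held a smaller share of the library at 48 h. Of 23 genes of the receptor complex, its kinases and adaptors, 18 were called lower and 2 higher, with a median log2 change of -0.82. Cd3g changed by -1.44 ± 0.16, the adaptor Grap2 by -1.48 ± 0.066, Skap1 by -1.63 ± 0.071 and the kinase Prkcq by -1.34 ± 0.055. The 2 that rose were Sh2d1a, the adaptor SAP (1.70 ± 0.099), and Lcp2, the adaptor SLP-76 (0.62 ± 0.081). Genes that restrain the receptor fell along with it: 14 of 24 were called lower and 4 higher. Dgka, which removes diacylglycerol, stood at 933, 1044 and 1042 CPM at 0 h and 241, 227 and 239 CPM at 48 h. Pag1, which holds the inhibitory kinase CSK at the membrane, changed by -2.70 ± 0.095, the ubiquitin ligase Peli1 by -1.86 ± 0.077 and the RAS inhibitor Rasal3 by -1.97 ± 0.064. Cblb, a ubiquitin ligase that sets the threshold for activation, went the other way and rose by 1.040 ± 0.073 (adjusted p = 8.73e-11). Spry1, an inhibitor of RAS signalling, stood at 5.61, 4.3 and 3.63 CPM at 0 h and 9.93, 31.6 and 32.000 CPM at 48 h, with replicate 1 lowest at 48 h. Its log2 change was 2.44 ± 0.44 and 3.01 without replicate 1.

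Of 26 calcium-handling and ion channel genes 8 were called higher and 12 lower, not far from the shares of all tested genes. Orai2, a pore subunit of the calcium release-activated channel, fell from 331 ± 9.92 to 37.04 ± 2.37 CPM, while Orai3 rose from 9.59 ± 0.335 to 21.2 ± 2.21. The sarcoplasmic calcium pumps moved apart: Atp2a3 changed by -1.95 ± 0.068 and Atp2a2 by 1.18 ± 0.067. The potassium channel Kcnk5 (3.26 ± 0.15) and the mitochondrial calcium uniporter Mcu (1.51 ± 0.094) rose, and the inositol trisphosphate receptor Itpr3 fell (-2.06 ± 0.081).

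Of 27 NF-kB genes 9 were called higher and 12 lower, not far from the shares of all tested genes. Nfkb2 stood at 69.2, 76.9 and 74.2 CPM at 0 h and 227, 242 and 241 CPM at 48 h, and Nfkb1 rose by 1.11 ± 0.064. Among the regulators, the kinase Ikbkb changed by -1.504 ± 0.062. The inhibitors did not move together. Nfkbia rose by 1.10 ± 0.19 and Nfkbib by 0.65 ± 0.076, and Tnip3, a partner of A20, stood at 0.229, 0.203 and 0.297 CPM at 0 h and 185, 113 and 113 CPM at 48 h, while Tnfaip3 fell as described above. The upstream bases of Tnip3 are printed with the promoter stretches below, since they hold the NF-kB letters GGGANTTCC.

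Immediate early factors were mostly lower at 48 h than in unstimulated cells. Of 30 AP-1, EGR, NFAT and NR4A genes 18 were called lower and 7 higher, with a median of -0.75. Fos stood at 386, 244 and 262 CPM at 0 h and 10.2, 8.37 and 9.8 CPM at 48 h, and Jun at 821, 698 and 743 CPM at 0 h and 78.5, 48.04 and 60.3 CPM at 48 h. Both were high in all resting libraries and lower in all stimulated ones. Fosb changed by -5.50 ± 0.71 and the MAP kinase phosphatase Dusp1, which is induced with them, by -4.28 ± 0.1. The 0 h library of replicate 1 was the highest of the 3 resting libraries for 16 of the 18 that fell. Those that rose included Nr4a3 (2.08 ± 0.26), Batf3, which stood at 0.115, 0.354 and 0.178 CPM at 0 h and 12.9, 4.31 and 4.45 CPM at 48 h, whose change of 4.98 was 3.99 without replicate 1, Batf (0.96 ± 0.17) and the EGR corepressor Nab2 (2.11 ± 0.089). Egr1 and Egr2 did not pass the test, with changes of 0.34 ± 0.29 (adjusted p = 0.313) and 0.22 ± 0.38 (adjusted p = 0.614). Egr1 stood at 96.5, 65.6 and 73.4 CPM at 0 h and 61.7, 120.0 and 116 CPM at 48 h, so the stimulated libraries of replicates 2 and 3 were above all resting ones and that of replicate 1 below them. Without replicate 1 of both times the Egr1 change was 0.78 (adjusted p = 0.0266), and 11 genes of the list were called higher. Nr4a1 changed by -1.77 ± 0.48 (adjusted p = 0.00905) with all libraries, and by -0.96 without replicate 1 (adjusted p = 0.0893). Nfatc1 was not called with all libraries (0.12 ± 0.076), but was called higher without replicate 1 of both times (0.23, adjusted p = 0.0055). Nfatc2 fell by 0.69 (SE 0.074).

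**Figure D3:**
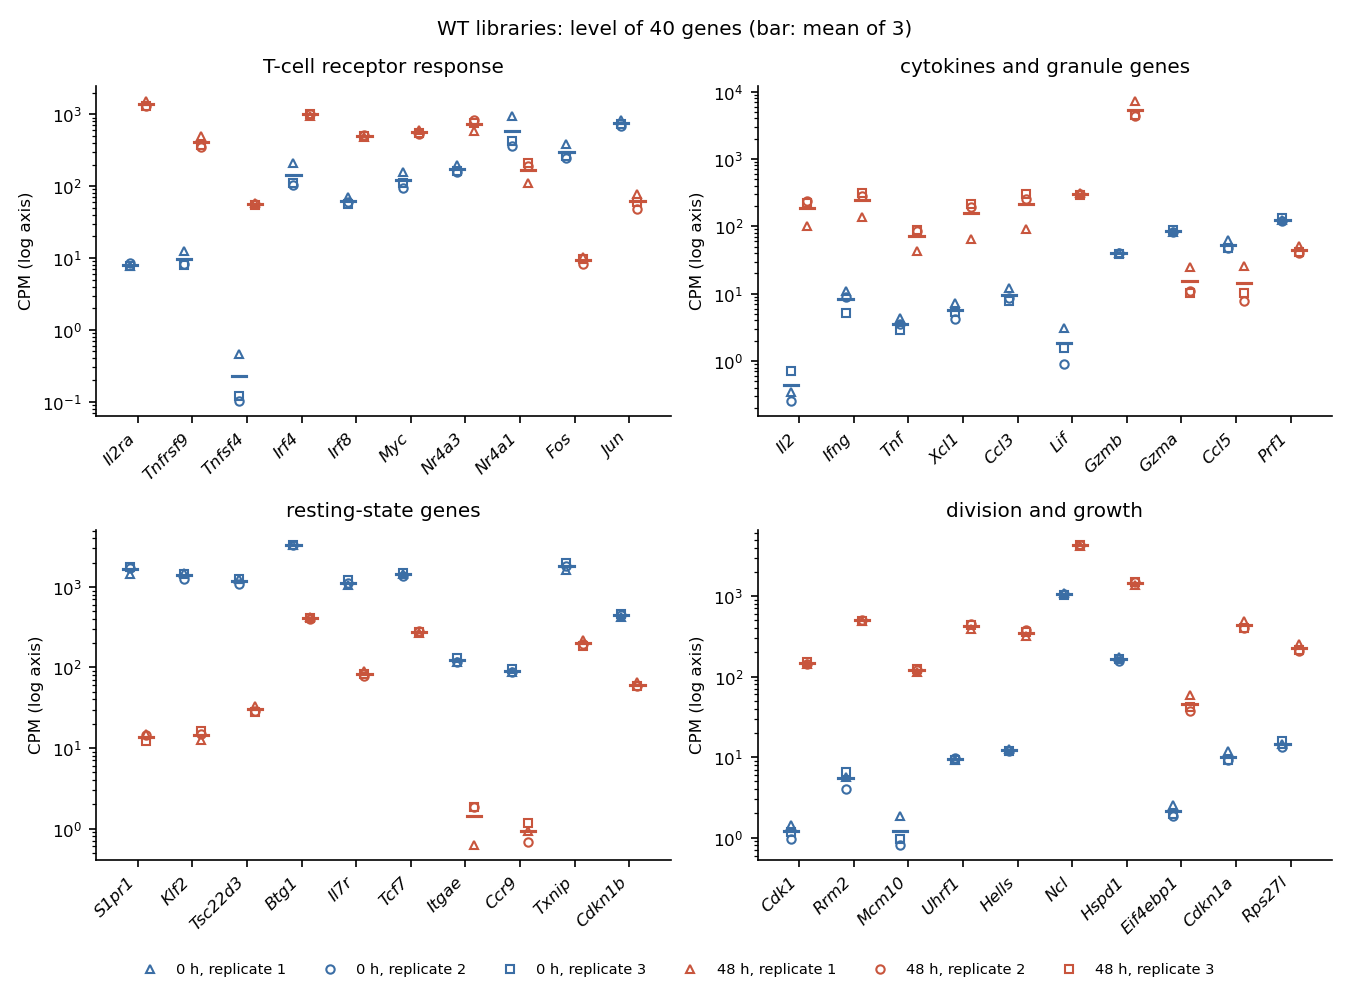
CPM on a log axis for 40 genes in each WT library, blue for 0 h and red for 48 h, with the marker shape giving the replicate and the bar the mean of 3. Most genes separate the times by far more than the replicates differ; replicate 1 at 48 h (red triangles) is lower than the others for Il2, Ifng, Tnf, Xcl1 and Ccl3 and higher for Gzmb.

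Transcription factors of the naive state fell almost as a block. Of 26 naive-state factors and RNA-binding brakes 23 were called lower and 1 higher, with a median of -1.69, and together they went from 18085 ± 239 CPM to 4654 ± 48.7 CPM. Tsc22d3, the glucocorticoid-induced leucine zipper, stood at 1236, 1092 and 1237 CPM at 0 h and 33.5, 28.99 and 28.3 CPM at 48 h, a change of -5.30 ± 0.11. Tcf7, which holds T cells in a stem-like state, stood at 1453, 1379 and 1494 CPM at 0 h and 265, 282 and 274 CPM at 48 h, Lef1, its relative, changed by -1.52 ± 0.085 and Foxo1 by -1.85 ± 0.062. Zfp36l2, which marks mRNAs for decay, changed by -2.95 ± 0.057, and the deadenylation partner Btg2 by -2.99 ± 0.058. Bach2, a repressor of effector genes, moved least among those called (-0.23 ± 0.091, adjusted p = 0.0266), and lost its call without replicate 1. Id3 was the member that rose, from 5.04, 5.11 and 4.58 CPM to 9.51, 20.1 and 19.2 CPM.

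Effector factors were less uniform: 11 of 23 were called higher and 6 lower, against 38.7% and 39.1% of all tested genes. Irf4, whose level scales with receptor signal strength, stood at 210.0, 102 and 109.9 CPM at 0 h and 952, 1021 and 1017 CPM at 48 h, and Irf8, its relative, at 71.3, 59.8 and 56.5 CPM at 0 h and 489, 513 and 492 CPM at 48 h. Irf8 separated the times without overlap by 2.99 ± 0.22. Tbx21 (T-bet) rose by 3.28 ± 0.26, Eomes by 1.87 ± 0.17 and Hif1a, the oxygen-regulated factor, by 1.499 ± 0.098. Mybl1 rose from 1.5 ± 0.475 to 31.3 ± 2.48 CPM. Id2, Tox, Ahr and Stat5b fell, with changes of -1.28 ± 0.088, -1.03 ± 0.093, -2.94 ± 0.24 and -0.54 ± 0.061. In the MYC and MAX network 5 of 12 members rose and 5 fell, not far from the shares of all tested genes. Myc stood at 158, 94.2 and 109 CPM at 0 h and 599, 532 and 545 CPM at 48 h, and Tfap4, a MYC target that prolongs its program, rose by 1.84 ± 0.13. The MAX partners that oppose MYC fell, Mxd4 by 2.77 (SE 0.091), Mxd1 by 1.66 (SE 0.25) and Mnt by 1.039 (SE 0.077), except Mxd3, which rose by 3.24 ± 0.35.

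Cell-cycle lists were among those with the highest medians. In the E2F, RB and DREAM network, which switches on replication and mitotic genes, 14 of 18 members were called higher and 2 lower. E2f1 stood at 2.12, 2.83 and 1.55 CPM at 0 h and 38.2, 39.4 and 45.03 CPM at 48 h, E2f8 rose by 5.97 ± 0.17, Mybl2 by 4.59 ± 0.11 and the E2F partner Tfdp1 by 3.49 ± 0.073, whereas Rbl2, the pocket protein of quiescent cells, fell by 0.25 (SE 0.063). Among G1 cyclins, kinases and inhibitors 15 of 19 were called higher and 3 lower. Ccnd2, the main D-type cyclin of T cells, rose from 366 ± 35.4 to 1076 ± 56.9 CPM, and Cdk6 from 59.7 ± 2.57 to 376 ± 38.9 CPM. Ccnd1, which lymphocytes hardly use, fell from 3.68 ± 0.674 to 0.951 ± 0.222 CPM. The CDK inhibitors went in opposite directions. Cdkn1b, the inhibitor of resting cells, stood at 420.4, 453 and 457 CPM at 0 h and 65.7, 59.1 and 58.7 CPM at 48 h. Cdkn1a, a p53 target, stood at 11.8, 9.21 and 9.28 CPM at 0 h and 496, 397 and 403 CPM at 48 h, and Ccng1, another p53 target, rose by 3.88 ± 0.084.

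All 22 origin licensing and helicase genes and all 29 DNA polymerase and fork genes were called higher, with medians of 2.63 and 2.37. Cdc6, which loads the replicative helicase, stood at 1.95, 1.87 and 1.66 CPM at 0 h and 128, 127 and 122 CPM at 48 h, and Mcm10 at 1.83, 0.81 and 0.951 CPM at 0 h and 114, 122 and 126 CPM at 48 h. Rises differed widely within these lists: Mcm6, already at 97.1 ± 4.5 CPM in resting cells, rose by 2.65 ± 0.064, and Pcna, the sliding clamp, by 2.12 ± 0.058. The nucleotide synthesis list had 32 of 34 members called higher and 1 lower. Rrm2, the inducible subunit of ribonucleotide reductase, rose from 5.44 ± 1.29 to 499 ± 6.06 CPM and its partner Rrm1 from 44.7 ± 5.02 to 685 ± 20.9 CPM. The mitochondrial folate enzyme Mthfd2 also rose (3.33 ± 0.08). The member that fell was Ctps2 (-0.87 ± 0.063), the second CTP synthetase. DNA repair and checkpoint genes followed, with 23 of 24 called higher.

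Mitotic genes had the highest medians of all lists, 4.95 for spindle, kinase and cytokinesis genes (36 of 37 called higher) and 3.99 for kinetochore genes (32 of 33). Together the spindle genes went from 399 ± 18.5 CPM to 3999 ± 118 CPM. Cdk1, the mitotic kinase, stood at 1.43, 0.962 and 1.19 CPM at 0 h and 144, 145 and 154 CPM at 48 h, Bub1, a checkpoint kinase, at 0.859, 1.67 and 0.773 CPM at 0 h and 127, 128 and 125 CPM at 48 h and Kif18b, a microtubule-shortening kinesin, at 0.573, 0.304 and 0.595 CPM at 0 h and 74.01, 79.3 and 76.1 CPM at 48 h. No stimulated library overlapped a resting one for these genes. A few members stood outside this pattern. Cenpa, the centromeric histone, stood at 115, 153 and 145 CPM at 0 h and 106, 103 and 98.95 CPM at 48 h and fell by 0.43 (SE 0.084, adjusted p = 1.36e-04), and Pttg1 (securin) changed by -0.30 ± 0.11 (adjusted p = 0.0195), a call that was lost when 0 h replicate 3, 48 h replicate 2 or 48 h replicate 3 was left out. In the cohesin and condensin list, 15 of 20 rose. Condensin subunits Ncapg (6.01 ± 0.11) and Ncaph (5.32 ± 0.12) and the cohesin acetyltransferase Esco2 (7.21 ± 0.24) led it, while the cohesin loader Nipbl fell by 0.71 (SE 0.077) and Esco1 by 0.27 (SE 0.076).

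Upstream sequence was looked at for the lists that moved together, in RefSeq windows of GRCm38.p6 reaching 250 bases before each start. The table held 32851 windows, but only 65.3% of tested genes had one (69.0% of genes called higher with a log2 change of at least 1, 53.9% of those called lower), so a share over called genes is void and none is given. Lists in which at least 80% of members had a window were set beside all windows of the table and, as the second value, beside the windows of tested genes. The CHR element, TTTGAA on either strand, is a known target of the DREAM complex, and was found in 15 of 36 windows (33 genes) of the spindle list (41.7%, against 15.99% of all windows and 11.0% of windows of tested genes) and in 7 of 34 windows (30 genes) of the kinetochore list (20.6%). CCAAT boxes, which the factor NF-Y reads, were in 24 of 36 spindle windows (66.7% against 33.8% and 35.1%). The E2F forms TTTCCCGC, TTTCGCGC, TTTGCCGC and TTTGGCGC were in 4 of 29 windows of DNA polymerase and fork genes (13.8% against 1.86% and 3.25%), and the ETS form CCGGAAG in 18 of 74 windows of mitochondrial ribosomal protein genes (24.3% against 6.91% and 13.4%). Windows of 1 gene can overlap, and a match of letters is a description, not a site. List members were chosen by function, with earlier results of these data known, so the shares are not independent of the expression changes. Stretches are printed to show where these letters lie, 5′ to 3′ on the strand of the gene, with the match in capitals. The E2F stretches are from Orc1 and Cdc6, origin licensing genes, and for that list no share is given because 17 of its 22 members had a window.
Cdk1 (GRCm38.p6, chr10:69352913-69353008, minus strand): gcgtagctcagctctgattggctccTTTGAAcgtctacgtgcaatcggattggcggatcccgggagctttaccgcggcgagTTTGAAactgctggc
Espl1 (GRCm38.p6, chr15:102296241-102296292, plus strand): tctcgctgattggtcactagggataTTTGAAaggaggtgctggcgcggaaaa
Kif2c (GRCm38.p6, chr4:117178845-117178900, minus strand): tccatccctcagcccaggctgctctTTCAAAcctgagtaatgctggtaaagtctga
Kif18b (GRCm38.p6, chr11:102925125-102925202, minus strand): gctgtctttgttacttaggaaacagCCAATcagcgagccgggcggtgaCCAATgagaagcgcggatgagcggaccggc
Orc1 (GRCm38.p6, chr4:108579402-108579453, plus strand): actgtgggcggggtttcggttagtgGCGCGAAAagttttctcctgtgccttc
Cdc6 (GRCm38.p6, chr11:98907988-98908045, plus strand): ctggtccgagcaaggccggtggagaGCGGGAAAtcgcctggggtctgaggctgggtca
Mrps22 (GRCm38.p6, chr9:98601680-98601715, minus strand): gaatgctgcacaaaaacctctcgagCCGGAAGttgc
Mrpl51 (GRCm38.p6, chr6:125192085-125192141, plus strand): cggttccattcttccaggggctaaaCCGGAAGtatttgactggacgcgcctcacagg

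Cdk1 held 2 copies of the CHR letters in the stretch shown, the nearer of them 15 bases before its start, and Kif18b 2 CCAAT letters. The genes above changed by 6.95 ± 0.2 (Cdk1), 6.39 ± 0.24 (Espl1), 6.58 ± 0.18 (Kif2c), 7.29 ± 0.15 (Kif18b), 4.41 ± 0.13 (Orc1), 6.10 ± 0.13 (Cdc6), 1.998 ± 0.12 (Mrps22) and 2.32 ± 0.095 (Mrpl51) on the log2 scale. At 100 upstream bases the CHR shares were 25% of spindle windows and 8.82% of kinetochore windows against 5.77% of all windows and 3.22% of windows of tested genes. The MYC E-box CACGTG was in 6 of 37 nucleotide synthesis windows (16.2%) and 2 of 36 nucleolar windows (5.56%), against 6.02% of all windows and 8.10% of windows of tested genes, and the AP-1 form TGANTCA in 4 of 24 cytokine windows (16.7% against 6.75% and 4.40%). The CRE form TGACGTCA was in 2 of 32 windows of the AP-1, EGR, NFAT and NR4A list (6.25% against 1.55% and 2.49%). Examples of the E-box and AP-1 letters are Tyms, thymidylate synthase, which changed by 5.20 ± 0.14, and Lif, a cytokine that changed by 7.38 ± 0.29. Tnip3 follows for the NF-kB letters, which 1.43% of all windows and 1.95% of windows of tested genes held on either strand.
Tyms (GRCm38.p6, chr5:30073656-30073711, minus strand): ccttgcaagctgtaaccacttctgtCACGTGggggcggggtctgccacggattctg
Lif (GRCm38.p6, chr11:4257318-4257371, plus strand): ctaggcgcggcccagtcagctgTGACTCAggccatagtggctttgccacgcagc
Tnip3 (GRCm38.p6, chr6:65590320-65590378, plus strand): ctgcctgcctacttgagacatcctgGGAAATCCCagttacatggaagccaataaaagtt

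Genes that copy and write chromatin included large rises and large falls. Of 22 histone variant, chaperone and HMG genes 19 were called higher. Hells, a remodeller needed for DNA methylation, stood at 12.5, 11.998 and 12.01 CPM at 0 h and 322, 376 and 359 CPM at 48 h, and the replication-coupled histone chaperone Chaf1a rose by 4.23 ± 0.12. Hist1h1c, a linker histone whose mRNA can be polyadenylated, was an exception: it stood at 127, 128 and 159.6 CPM at 0 h and 6.34, 4.42 and 4.77 CPM at 48 h, a change of -4.74 ± 0.13. Among 36 DNA methylation, Polycomb and histone-modifying enzymes, 18 were called higher and 17 lower, against 38.7% and 39.1% of all tested genes. Those that rose included Uhrf1, which guides Dnmt1 to replicated DNA (9.16, 9.77 and 9.22 CPM at 0 h and 388, 451 and 435 CPM at 48 h), Dnmt1 (1.83 ± 0.085), the Polycomb methyltransferase Ezh2 (4.26 ± 0.067) and Phf19 (4.17 ± 0.12). Those that fell included Ezh1 (-1.68 ± 0.077), Cbx7 (-2.27 ± 0.11), Jarid2 (-1.34 ± 0.073) and the demethylase Kdm6a (-1.18 ± 0.074).

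As shares of the library, protein synthesis genes rose on the side of ribosome assembly and charging, while most ribosomal protein genes were not called higher. Of 30 RNA polymerase I, snoRNP and nucleolar genes 26 were called higher, and their sum went from 4698 ± 75.7 CPM to 13876 ± 242 CPM. Nhp2 (2.56 ± 0.1) and Dkc1 (2.17 ± 0.078), subunits of the pseudouridine-guiding particle, were among the largest. All 20 aminoacyl-tRNA synthetases were called higher, with a median of 1.63, Aars reaching 2.09 ± 0.084. Translation factors had 32 of 41 called higher and 5 lower; Eif5a, which needs the polyamine-derived residue hypusine, rose from 336 ± 13.2 to 1655 ± 74.1 CPM, and Eif4ebp1, a brake on cap-dependent initiation, from 2.12 ± 0.35 to 46.02 ± 11.1 CPM. By contrast, of 80 cytosolic ribosomal protein genes 50 were called lower, 9 higher and 21 were not called, with a median of -0.27. Their summed level was 81209.7 ± 4970.2 CPM at 0 h and 68911 ± 5852 CPM at 48 h. By library it was 84807, 75538 and 83284 CPM at 0 h and 75370, 63964 and 67400 CPM at 48 h. Replicate 1 was the highest 48 h library for 49 of the 50 genes called lower and 8 of the 9 called higher. Rps2 rose (1173, 1220.0 and 1282 CPM at 0 h and 2423, 2411 and 2439 CPM at 48 h), Rps27 fell by 1.66 (SE 0.075) and its paralogue Rps27l rose by 3.95 ± 0.11. Rpl4 and Rpsa, among the most abundant, were not called, with 95% intervals of -0.05 to 0.18 and -0.07 to 0.17 around changes of 0.06 and 0.05. These genes have many processed copies, so single values depend on how reads of copies were counted.

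Protein folding and disposal rose together. Of 26 chaperone genes 21 were called higher, with Hspd1, the mitochondrial chaperonin, at 176, 155 and 164 CPM at 0 h and 1379, 1479 and 1493 CPM at 48 h, and Tcp1, a subunit of the cytosolic chaperonin, rising by 1.79 ± 0.058. Dnaja1 (-0.87 ± 0.058) and the heat-shock factor Hsf1 (-0.60 ± 0.074) fell. In the proteasome 37 of 38 subunits were called higher with a median of 1.22, led by Psmd7 (2.40 ± 0.083). The member that fell was Psmb10, an immunoproteasome subunit (-0.48 ± 0.082, adjusted p = 2.67e-05). Genes of the secretory pathway had 32 of 36 called higher, among them the lectin chaperone Canx (1.71 ± 0.056) and the oligosaccharyltransferase subunit Rpn1 (2.10 ± 0.067). Of 34 nuclear pore and transport genes 32 were called higher, with the importin Kpna2 (4.19 ± 0.074) and the GTPase Ran (2.58 ± 0.068). Nup153 and Nup210 were lower, by 0.47 (SE 0.082) and 0.41 (SE 0.069). Splicing factors had 31 of 37 called higher with a median of 0.77, yet the most abundant included falls, Sf3b1 from 1665 ± 70.02 to 645 ± 53.4 CPM and Srsf5 from 1524 ± 33.6 to 529 ± 10.2 CPM. Hnrnpll, which directs the change of CD45 exons in activated T cells, rose from 32.6 ± 1.11 to 123 ± 14.6 CPM.

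Nuclear genes for the mitochondrial ribosome and protein import were mostly higher. Of 77 mitochondrial ribosomal protein genes 71 were called higher with a median of 1.08, Mrps6 going from 4.13 ± 0.423 to 51.001 ± 3.37 CPM and Mrpl18 from 24.4 ± 1.49 to 139 ± 6.96 CPM. Import and DNA upkeep genes had 22 of 27 called higher. Chchd4 rose by 2.81 ± 0.1 and Timm50 by 2.24 ± 0.084, while Polg2, the accessory subunit of the mitochondrial DNA polymerase, stood at 58.2, 59.1 and 62.2 CPM at 0 h and 7.33, 10.3 and 10.1 CPM at 48 h. Of 13 mRNAs encoded in the organelle none was called higher and 2 lower. Intervals were narrow for mt-Nd5 (0.04, 95% interval -0.13 to 0.21), mt-Cytb (0.09, -0.11 to 0.29) and mt-Nd1 (-0.08, -0.28 to 0.12). The 2 calls, mt-Co1 (-0.25 ± 0.087) and mt-Atp8 (-0.93 ± 0.41), were both lost without replicate 1 of both times.

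Nutrient carriers and the enzymes they feed were mostly higher. Of 14 carriers for glucose, lactate, vitamins and nucleosides 12 rose; the lactate exporter Slc16a3 stood at 4.12, 3.54 and 4.16 CPM at 0 h and 164, 102 and 118 CPM at 48 h, and the thiamine carrier Slc19a2 at 10.1, 14.4 and 11.5 CPM at 0 h and 113, 118 and 119 CPM at 48 h. The phosphate carrier Slc20a1 fell by 1.28 (SE 0.063). Among amino acid transporters 10 of 14 rose and 3 fell. Slc7a5, the carrier of large neutral amino acids, rose from 54.4 ± 4.54 to 305 ± 20.03 CPM, while its partner chain Slc3a2 was not called (-0.15 ± 0.075, adjusted p = 0.0741). Bcat1, which takes nitrogen from branched-chain amino acids, stood at 0.859, 0.608 and 0.832 CPM at 0 h and 123, 135 and 144 CPM at 48 h. Those that fell were Slc38a2 (-1.16 ± 0.059) and the lysosomal carriers Slc38a9 (-1.10 ± 0.079) and Slc36a1 (-1.59 ± 0.12). In the mTORC1 list 9 of 20 were higher and 6 lower, not far from the shares of all tested genes. Its inhibitors moved apart: Ddit4 rose from 15.8 ± 2.16 to 218 ± 40.8 CPM and Sesn2 from 13.6 ± 1.4 to 69.1 ± 1.72, and Sesn1 fell from 110.5 ± 7.59 to 23.04 ± 2.12 CPM.

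Glucose genes were mostly higher. Hk2, the inducible hexokinase, stood at 5.55, 5.37 and 4.88 CPM at 0 h and 325, 256 and 254 CPM at 48 h, and 15 of 25 genes of glucose entry, the pentose phosphate path and pyruvate switches were called higher against 8 lower. Tkt, a transketolase, rose by 1.88 ± 0.057. Txnip, an arrestin that removes glucose carriers from the membrane, fell. It stood at 1601, 1814 and 1996 CPM at 0 h and 217, 193 and 187 CPM at 48 h. Arrdc3, a related arrestin, changed by -2.54 ± 0.14. Pyruvate dehydrogenase kinases diverged, with Pdk3 at 2.05 ± 0.083, Pdk2 at -1.79 ± 0.17 and Pdk1 at -0.22 ± 0.06. Lipid synthesis genes had 21 of 27 called higher and 5 lower. The sterol enzymes Idi1 (3.91 ± 0.089) and Sqle (3.01 ± 0.074) rose, and the sterol exporters Abca1 (-1.72 ± 0.19) and Abcg1 (-1.54 ± 0.1) fell, as did Acss2 (-1.92 ± 0.076), which makes acetyl-CoA from acetate. In the polyamine list Srm, spermidine synthase, rose from 16.95 ± 0.774 to 191 ± 5.14 CPM and Odc1 from 441 ± 36.8 to 785 ± 24.5 CPM. In the iron list Tfrc rose by 3.32 ± 0.066, the ferritin chain Fth1 fell by 1.02 (SE 0.066), and the exporter Slc40a1 went from 195 counts at 0 h to none, at least 72.5-fold lower. Antioxidant genes had 17 of 24 higher, Txn1 from 33.7 ± 2.04 to 305 ± 40.9 CPM, and 4 lower, among them Prdx6 (-1.58 ± 0.075), Sod1 (-0.88 ± 0.06) and Gclc (-0.77 ± 0.071).

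Recycling genes went mostly down. Of 35 lysosome and autophagy genes 20 were called lower and 9 higher. Map1lc3b, the autophagosome protein, stood at 198, 193 and 192 CPM at 0 h and 61.2, 52.9 and 56.4 CPM at 48 h, and Atg2a changed by -2.13 ± 0.077. Bnip3, a mitophagy receptor, was the largest exception, at 4.18, 3.44 and 4.82 CPM at 0 h and 169, 122 and 129 CPM at 48 h. Of the clock genes 8 of 15 were called lower and 2 higher. Per1 fell from 492 ± 21.8 to 37.8 ± 6.22 CPM and Nr1d2 from 221 ± 12.4 to 28.3 ± 3.69 CPM, while Ciart rose by 1.65 ± 0.17.

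At the cell surface, receptors of recirculation and survival were mostly lower. Of 26 homing and adhesion receptors 19 were called lower and 5 higher. Beside S1pr1 and Ccr9, Itgae, the integrin chain CD103, stood at 118, 117 and 132 CPM at 0 h and 0.624, 1.84 and 1.86 CPM at 48 h and Itgb7, its partner, at 522, 528 and 527 CPM at 0 h and 71.3, 80.97 and 79.3 CPM at 48 h. Ccr7, a lymph-node homing receptor, moved far less, by -0.65 ± 0.1. Cd44 rose from 81.9, 44.2 and 46.8 to 288, 258 and 232 CPM and Icam1 by 1.52 ± 0.11. The early activation marker Cd69 was lower at 48 h than at 0 h (-0.75 ± 0.17). Of 28 cytokine receptors 19 were called lower and 7 higher. Il7r stood at 1054, 1126 and 1215 CPM at 0 h and 89.8, 78.3 and 83.97 CPM at 48 h, and both chains of the interferon gamma receptor fell, Ifngr1 by 3.12 (SE 0.091) and Ifngr2 by 3.84 (SE 0.069). Tgfbr2 changed by -2.53 ± 0.066 and Il6ra by -4.21 ± 0.16. The interleukin 12 receptor rose, Il12rb1 by 3.83 ± 0.096 and Il12rb2 by 5.62 ± 0.25. Of 8 GIMAP GTPases, survival proteins of resting lymphocytes, 7 fell, Gimap3 by 1.45 (SE 0.072), and Gimap7 rose by 1.31 ± 0.096. Of 18 glycan enzymes 11 fell and 5 rose, with Ugcg, which starts glycosphingolipids, at 787, 795 and 862 CPM at 0 h and 189, 192 and 202 CPM at 48 h.

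Of costimulatory and inhibitory receptor genes 12 of 27 and 9 of 21 were called higher and 11 and 8 lower, shares near those of all tested genes. Tnfrsf9 (4-1BB) stood at 12.5, 8.3 and 8.09 CPM at 0 h and 503, 356 and 378 CPM at 48 h, and Tnfrsf4 (OX40) rose by 3.41 ± 0.12. Cd28, target of the stimulating antibody, stood at 1134, 1032 and 1088 CPM at 0 h and 418, 434 and 428 CPM at 48 h, and Tnfrsf1b fell by 1.67 (SE 0.075). Among inhibitory genes Lag3 stood at 3.26, 0.81 and 1.19 CPM at 0 h and 113, 72.7 and 73.3 CPM at 48 h and Pdcd1 (PD-1) at 5.78, 4.96 and 6.24 CPM at 0 h and 28.6, 41.6 and 46.98 CPM at 48 h. Ctla4 rose by 1.23 ± 0.21 and Cd200 by 4.92 ± 0.26. Nt5e (CD73) and Vsir (VISTA) fell, by 3.09 (SE 0.11) and 2.06 (SE 0.14). Havcr2 (TIM-3) stood at 1.09, 1.06 and 1.19 CPM at 0 h and 0.468, 0.894 and 0.499 CPM at 48 h and was not called (-0.84 ± 0.41, adjusted p = 0.0668).

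Cytokine genes rose in most cases, 18 of 26 with 3 lower and a median of 3.13. Replicate 1 at 48 h differed from the other 2 for several of them. Il2 stood at 0.344, 0.253 and 0.713 CPM at 0 h and 99.8, 238 and 224 CPM at 48 h, Ifng at 10.9, 8.86 and 5.17 CPM at 0 h and 136, 281 and 317 CPM at 48 h and Ccl3 at 11.97, 8.71 and 7.85 CPM at 0 h and 89.7, 253 and 303 CPM at 48 h. In each of these the stimulated library of replicate 1 was the lowest of its group and still above all resting libraries. Without replicate 1 of both times the changes were 5.41 for Ifng, 5.08 for Ccl3, 5.43 for Xcl1 and 4.78 for Tnf, against 4.87, 4.50, 4.81 and 4.33 with it, and all kept their calls. Over the 18 cytokine genes called higher, 48 h replicate 1 was the lowest of the 3 in 8 and the highest in 10. Lif stood at 3.09, 0.911 and 1.55 CPM at 0 h and 315, 303 and 296 CPM at 48 h, and Lta and Mif rose by 4.43 ± 0.13 and 3.18 ± 0.1. Ccl5 fell (62.6, 47.8 and 47.6 CPM at 0 h and 25.6, 7.79 and 10.3 CPM at 48 h), as did Ltb (-0.61 ± 0.1) and Il16 (-0.64 ± 0.082).

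Of 23 killer genes 10 were called higher and 11 lower, shares near those of all tested genes. Besides Gzmb, Gzmc stood at 0.744, 0.253 and 0.654 CPM at 0 h and 13.9, 5.58 and 3.31 CPM at 48 h and the granzyme inhibitor Serpinb6b at 25.8, 24.6 and 23.7 CPM at 0 h and 361, 270.4 and 285 CPM at 48 h. Gzma (-2.47 ± 0.45), Gzmm (-2.16 ± 0.29) and Gzmk fell, Gzmk with 89 counts at 0 h and 3 at 48 h. Prf1, the pore-forming perforin, stood at 125, 120.2 and 131 CPM at 0 h and 51.1, 40.7 and 41.2 CPM at 48 h, lower in every stimulated library, and Ctsw at 216, 207 and 196 CPM at 0 h and 36.4, 31.3 and 34.7 CPM at 48 h. Of the 10 called higher, replicate 1 was the highest library at 48 h in all 10. Without replicate 1 of both times the changes were 6.85 for Gzmb, 3.32 for Gzmc and -2.98 for Gzma. With it they were 7.08, 3.79 and -2.47, and all of them kept their calls. The 15 natural killer and innate-like markers, all called lower, moved with the genes that fell, and their part in this was not tested.

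Feedback and survival genes moved in both directions. Of 16 feedback genes and PIM kinases 8 rose and 4 fell, against 38.7% and 39.1% of all tested genes. Cish, an inhibitor induced by STAT5, stood at 8.59, 10.99 and 10.3 CPM at 0 h and 226, 215 and 207 CPM at 48 h, Socs2 rose by 5.85 ± 0.24 and Pim2 by 2.63 ± 0.085, while Socs3 fell by 2.24 (SE 0.31). In the BCL2 family 9 of 15 rose and 3 fell. Bcl2l1 (BCL-XL) stood at 15.002, 11.2 and 11.1 CPM at 0 h and 226, 242 and 238 CPM at 48 h, against a smaller rise of Bcl2 (0.49 ± 0.062). The death mediators Bax (2.45 ± 0.079) and Bak1 (1.83 ± 0.085) rose, and the sensors Bcl2l11 (BIM, -1.42 ± 0.078) and Bmf (-3.06 ± 0.5) fell. Mcl1 fell by 0.57 (SE 0.059). Interferon-stimulated genes had 21 of 34 called higher and 6 lower, with a median of 0.80. Gbp5, a guanylate-binding protein of the interferon gamma response, stood at 30.7, 28.4 and 23.6 CPM at 0 h and 543, 523 and 515 CPM at 48 h and Gbp2 at 119, 124 and 90.6 CPM at 0 h and 935, 946 and 998 CPM at 48 h, while the sensor gene Ddx58 (RIG-I, -1.57 ± 0.073) and Irf9 (-1.01 ± 0.094) fell.

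Cytoskeletal genes had 18 of 33 called higher and 12 lower, against 38.7% and 39.1% of all tested genes. The tubulin Tuba1b rose from 127 ± 2.41 to 773 ± 10.1 CPM, as did the tubulin-binding Stmn1 (4.66 ± 0.09) and Lmnb1 (2.65 ± 0.07), and Tubb2a (-1.71 ± 0.088), Myh9 (-1.43 ± 0.083) and Lmna (-1.60 ± 0.35) fell. Tmsb4x, the actin monomer-binding thymosin, was abundant and not called with all libraries (-0.13, 95% interval -0.29 to 0.03). It was called lower without replicate 1 of both times (-0.17, adjusted p = 0.012) and with a replicate block in the fit (-0.13, adjusted p = 0.0231). Genes often used as references moved by different amounts. Actb rose by 0.84 ± 0.067, Ppia by 1.32 ± 0.066, Gapdh by 3.21 ± 0.13, Hprt by 1.74 ± 0.062 and Tbp by 0.53 ± 0.065, and B2m fell by 0.41 (SE 0.073), each past the test.

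Among RNA-regulating genes, 10 of 24 RNA decay and m6A factors were called higher and 11 lower, near the shares of all tested genes. Zc3h12a (Regnase-1), which destroys mRNAs of activated T cells, stood at 121, 118 and 117 CPM at 0 h and 28.8, 29.8 and 29.7 CPM at 48 h, while its relative Zc3h12d rose by 1.34 ± 0.091. Of 11 microRNA processing genes 6 rose and 5 fell, against 38.7% and 39.1% of all tested genes. Drosha (1.28 ± 0.082), Dgcr8 (0.81 ± 0.081) and the exporter Xpo5 (1.18 ± 0.07) were higher and Ago1 (-0.64 ± 0.098), Ago2 (-0.32 ± 0.088) and Ago3 (-0.96 ± 0.11) lower. Among long non-coding and host RNAs, Malat1 stood at 1563, 1634 and 1802 CPM at 0 h and 123, 297 and 219 CPM at 48 h and Neat1 changed by -3.03 ± 0.16. The host RNA of miR-155, Mir155hg, stood at 11.3, 11.1 and 9.75 CPM at 0 h and 66.4, 71.8 and 72.1 CPM at 48 h, and that of the miR-17 to miR-92a cluster, Mir17hg, changed by -0.26 ± 0.071. The libraries measure host RNAs, not mature microRNAs. Mature forms that lie inside these hosts by position are shown because their seed (bases 2 to 8, in capitals) is what pairs with targets.
miR-155-5p (in Mir155hg): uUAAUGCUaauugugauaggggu
miR-17-5p (in Mir17hg): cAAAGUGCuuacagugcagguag
miR-20a-5p (in Mir17hg): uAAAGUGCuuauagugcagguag
miR-19a-3p (in Mir17hg): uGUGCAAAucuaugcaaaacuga
miR-19b-3p (in Mir17hg): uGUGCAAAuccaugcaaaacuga
miR-92a-3p (in Mir17hg): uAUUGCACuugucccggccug
miR-142a-3p (in Mir142hg): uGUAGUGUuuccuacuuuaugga
miR-22-3p (in Mir22hg): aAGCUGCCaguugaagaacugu

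miR-17-5p and miR-20a-5p share a seed, and so do miR-19a-3p and miR-19b-3p, so within the Mir17hg transcript several products address the same target letters. Mir142hg, the host of a microRNA of blood cells, changed by -0.96 ± 0.082 and Mir22hg by -1.96 ± 0.22 on the log2 scale.

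Pairs of related genes were compared within each library. For 28 pairs the log2 ratio of counts was taken, with 0.5 added to each count and no correction for length, so that a change of the ratio is read and not its level. The groups did not overlap in 26 pairs. Cdkn1a over Cdkn1b changed by 8.27, Ezh2 over Ezh1 by 5.94, Rps27l over Rps27 by 5.603 and Hk2 over Hk1 by 5.11. Ezh2 over Ezh1 was -1.90, -2.06 and -1.99 at 0 h and 4.03, 3.93 and 3.91 at 48 h, a shift without overlap in which the spread between replicates was small. Bcl2l1 over Bcl2 changed by 3.77, Eif4ebp1 over Eif4ebp2 by 5.00, Sesn2 over Sesn1 by 4.61 and Foxm1 over Foxo1 by 4.70. Ratios that fell without overlap were Hnrnpl over Hnrnpll (-1.45), Ccnd3 over Ccnd2 (-1.21), Rpl22l1 over Rpl22 (-0.96), Ifngr2 over Ifngr1 (-0.71) and Prdx1 over Prdx2 (-0.36). In 2 pairs the genes moved together and the groups overlapped: the glucose carriers Slc2a1 and Slc2a3 (-0.05) and the de novo methyltransferases Dnmt3b and Dnmt3a (0.04). The pairs were chosen for known contrast, so the number that moved is no result about gene families.

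**Figure D4:**
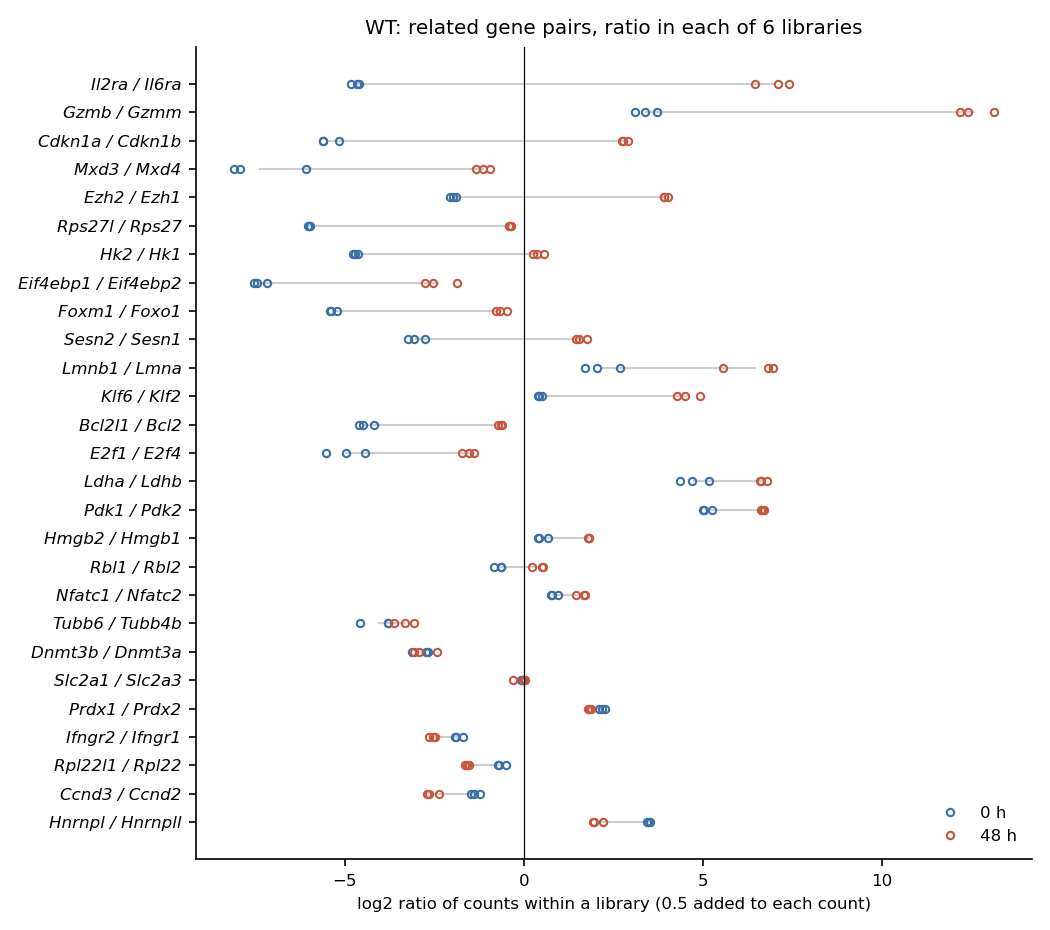
Log2 ratio of counts of the first-named gene over the second in each of 6 WT libraries, blue for 0 h and red for 48 h; the grey line joins the means, and 1 of the pairs is not drawn. The ratio of Cdkn1a to Cdkn1b moved from below 0 to above 0 (change 8.27), and those of Slc2a1 to Slc2a3 and Dnmt3b to Dnmt3a did not separate the times.

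The whole set of lists can be read from the plot of list members. By median, the spindle, kinetochore, cytokine, DNA repair and G1 cyclin lists stand at the top, and the lists of naive-state factors and of B-cell, natural killer, myeloid, neutrophil and erythroid markers at the bottom.

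**Figure D5:**
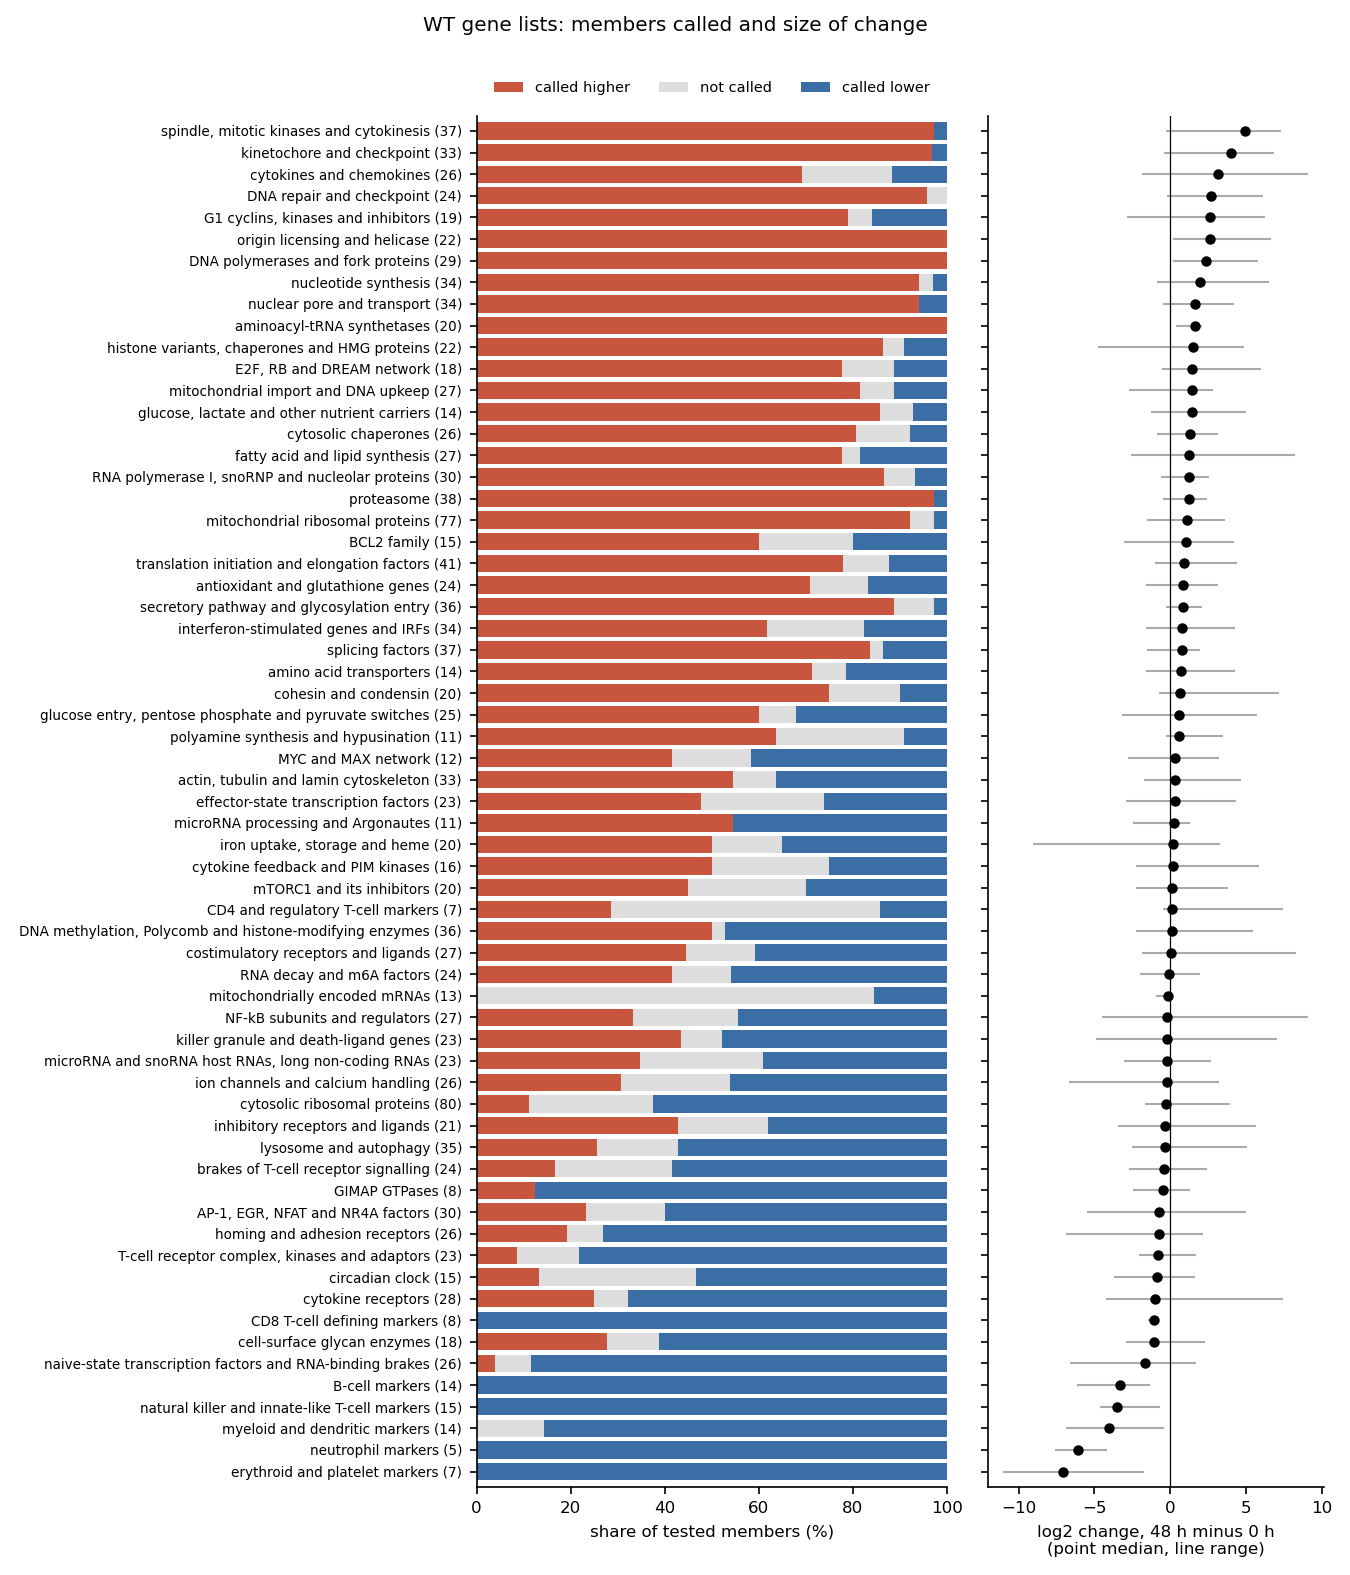
For each gene list (tested members in brackets) the left bars give the share of members called higher, not called and called lower at 48 h in percent, and the right panel the median and the range of the members' log2 changes. Medians run from 4.95 for spindle genes to -7.09 for erythroid markers, and the ranges show members on both sides of 0 in most lists.

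The WT response was set beside that of CKO cells only for the difference between them, tested as an interaction. It was called for 220 of 15935 genes (1.38%), 123 in which the WT change was the more positive and 97 in which it was the more negative, and 2045 genes had an unadjusted p under 0.05. These counts rest on single libraries: without WT 48 h replicate 1 the more positive numbered 207, and the more negative numbered 59 without WT 0 h replicate 2, 59 without WT 48 h replicate 2 and 61 without WT 48 h replicate 3. DESeq2 called 218 and 200. Of the 12409 genes called in WT, 192 (1.55%) were among them. Pimreg (2.46 ± 0.42), Psrc1 (2.01 ± 0.27), Vegfa (1.98 ± 0.36) and Kif18b (1.83 ± 0.27) rose more in WT, and Phf19 differed by 1.56 ± 0.16 (WT minus CKO, log2, SE). Pimreg, Psrc1 and Kif18b were close to silent in resting WT cells, so the WT side of their differences rests on few counts. Whether the genotypes differed in level at 48 h was not tested. Alcam, a ligand of CD6, rose by 3.40 ± 0.12 in WT, and the difference was -1.80 ± 0.19 (adjusted p = 3.50e-05). Bag3, Rgs2 and Sox4 fell more in WT, with differences of -1.32 ± 0.28, -1.32 ± 0.16 and -1.24 ± 0.21.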

How the data were processed

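RNA of 12 samples was extracted with TRIzol and made into libraries with a stranded mRNA kit, per the labels' protocols. The deposited table holds the authors' raw counts per gene, with 56691 gene IDs. The submitters' processing notes name cutadapt, HISAT2 2.2.1, DESeq2 and the build GRCm39, with no role or order. For the counting program, the annotation and the strand setting, nothing is given in the sources used, so genes with near-identical copies or antisense partners are uncertain. No column was left unmapped to a sample (0 unused). Rows without a symbol held 0.249% of counts.

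Counts were scaled by TMM and fitted with edgeR 4.0.16 (R 4.3.3, limma 3.58.1): robust quasi-likelihood fit over all 12 libraries, 1 mean for each of 4 groups, after edgeR's filter on low counts. The contrast was WT 48 h minus WT 0 h, two-sided, Benjamini-Hochberg adjusted over 15935 genes. The SE is the log2 change divided by the square root of F. DESeq2 1.42.0 served as an alternative. The fit was tested on simulated data with known changes. Figures and tables were made in Python 3.11.15 (matplotlib 3.10.9, pandas 2.3.3, SciPy 1.17.1, NumPy 2.4.6). The exact permutation test of 3 against 3 libraries cannot go below p = 0.1 and was not used. Count ratios carry 95% intervals for counting error only, and bounds against the floor of 3 counts over a group carry no interval.

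Genes were named by rule: the 12 largest log2 changes and the 12 largest CPM differences in each direction without overlap between groups, the 12 most abundant genes that appeared or disappeared, the 8 most abundant genes not called, leading and opposing members of each of 63 gene lists, members of 28 related pairs, motif-bearing members, the 8 largest interactions in each direction and a set of markers. The genes, lists, pairs and motifs were chosen with earlier results of these data known. Some named genes are not reported here.

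Promoter windows and mature microRNA sequences are from RefSeq (windows from GRCm38.p6). Bounds and strands of the microRNA host genes are from a GENCODE annotation, and mature forms were placed by overlap on the same strand. Sequence shares were computed over windows, and several windows can belong to a gene. Alternatives were 2 other scalings, other count filters, a replicate block, DESeq2, a fit of the WT libraries alone and leaving out libraries.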

Additional observations from a re-analysis of the deposited data

Results flagged for a closer look

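The responses of the genes named here differed between WT and CKO cells in the interaction test (edgeR, adjusted p under 0.05 over 15935 genes). Values are the WT log2 change minus the CKO log2 change. The WT change was the more positive for Pimreg (2.46), Psrc1 (2.01), Vegfa (1.98), Kif18b (1.83), Phf19 (1.56), Etv3 (1.53), Itih5 (1.46), Wdfy1 (1.41) and Spire1 (1.32). It was also the more positive for Nuf2 (0.97), Scd2 (0.87), Fancd2 (0.79), Stmn1 (0.70), Senp1 (0.67), Pim2 (0.62), Bcl2l11 (0.58), Pdk1 (0.57) and Tef (0.56). Smaller positive differences were found for Slc3a2 (0.55), Elovl5 (0.50), Cyp51 (0.47), Tubb5 (0.41), Slc38a2 (0.40) and Gimap8 (0.38). The WT change was the more negative for Alcam (-1.80), Chst3 (-1.52), Rgs2 (-1.32), Bag3 (-1.32), Sox4 (-1.24), Plin2 (-1.22) and Otud1 (-1.08). Smaller negative differences were found for Exo1 (-0.99), Mir155hg (-0.77), Pdp1 (-0.76), Nfkb1 (-0.64), Cd6 (-0.40) and Mcl1 (-0.37). Senp1 is the gene deleted in CKO cells. These differences are values from 3 libraries in each of 4 groups. Those of Pimreg, Psrc1 and Kif18b rest on few counts in resting WT cells, and levels at 48 h were not compared between genotypes.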

How the results depend on the processing

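Of 533 named genes under 14 alternatives, 7349 gene values kept direction and call, 50 lost a call, 33 gained one and 0 reversed; 16 genes lost a call somewhere, 11 of them in at least 2 settings. The other scalings moved the median of all genes by -0.03. These scalings are relative too, so they do not test the balance of rises and falls.

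The interaction was called for 353 genes higher and 223 lower in WT without a count filter, for 218 and 200 with DESeq2, and for 227 higher without replicate 1 of both times. Leaving out single WT libraries gave 91 to 207 higher and 59 to 123 lower. With the stricter filter (5 CPM), 2286 genes rose and 2244 fell by a log2 change of at least 1, and members called lower were 4 nucleolar, 2 nutrient carrier, 2 polyamine, 7 feedback and PIM, 4 mitochondrial mRNA, 4 myeloid, 0 neutrophil and 2 erythroid genes, with 5 mTORC1 genes higher; fewer genes were tested there. Without a count filter 2 naive-state factors and 1 mitochondrial mRNA were higher, and 0 polyamine, 1 mitochondrial mRNA and 0 CD4 and regulatory T-cell genes lower. Polyamine genes called lower were 2 under both other scalings and DESeq2. In the fit of the WT libraries alone 2 neutrophil and 0 CD4 and regulatory T-cell genes were lower, and the interaction could not be fitted.

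Without replicate 1 of both times, 11 AP-1 list and 2 naive-state genes were higher, and 1 mitochondrial ribosomal, 0 mitochondrial mRNA, 0 CD4 and regulatory T-cell and 3 neutrophil genes lower. Leaving out single libraries gave 1 to 2 naive-state genes and 0 to 2 mitochondrial mRNAs higher, and 0 to 1 spindle, 1 to 2 mitochondrial ribosomal, 0 to 5 mitochondrial mRNA, 0 to 1 CD4 and regulatory T-cell and 3 to 5 neutrophil genes lower. At 100 upstream bases the motif shares were 25% (CHR, spindle) and 8.82% (CHR, kinetochore). The sterol share was 0% in the lipid list and the interferon share 31.2% in the interferon list. Both lists had too few windows to compare (19 of 27 and 26 of 34 members). Thinned to the smallest total, 12456 genes reached 1 CPM at 48 h. The cause of these shifts was not tested.

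The replicate numbers are shared between 0 h and 48 h. Deviations of same-numbered libraries correlated at 0.16, 0.16 and 0.06 in WT and at 0.042, 0.048 and 0.056 in CKO. Each library correlated best with its own number, a hint from the data, but the labels do not say that numbers pair libraries and not every correlation passed 0.1, so the fit without the block was kept. With the replicate block within genotype, 6162 genes were called higher and 6218 lower in WT, the interaction was called higher for 175 and lower for 175, and 2 naive-state genes were higher and 2 polyamine genes lower. Nr4a1 and mt-Atp8 were among the named genes not called under the block.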
